A study of Mus musculus with 4 samples.

Results

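The Ikaros family genes *Ikzf1*, *Ikzf2*, *Ikzf3*, *Ikzf4* and *Ikzf5* were taken from the deposited expression table by their symbols, 5 genes of the 18598 listed. RNA had been sequenced from LSK cells, the lineage-negative bone marrow cells that carry SCA-1 and c-KIT and hold the stem and multipotent progenitor cells, of C57BL/6 mice about 3 months old. The Bptf cKO group carried the floxed *Bptf* allele on both chromosomes with *Mx1*-cre, a transgene whose promoter responds to interferon and is switched on by the double-stranded RNA mimic pIpC. The control group carried *Bptf* f/f without cre, and both groups received pIpC and were sorted 10 days after cre induction. Each group had 2 libraries, each from the pooled cells of 5 mice. *Mx1*-cre also acts outside blood cells, and these libraries hold no cre-only control.

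Ikaros family proteins are zinc finger transcription factors. Zinc fingers near the N terminus bind DNA, and a pair of fingers at the C terminus joins family members into homodimers and heterodimers. Ikaros (*Ikzf1*) primes stem and progenitor cells for the lymphoid fate, Helios (*Ikzf2*) is known from stem cells and regulatory T cells, Aiolos (*Ikzf3*) from B, T and NK cells, Eos (*Ikzf4*) from regulatory T cells, and Pegasus (*Ikzf5*) is the most divergent and widely expressed member. Ikaros, Helios and Aiolos recruit the NuRD complex, which removes acetyl groups from histones and remodels nucleosomes.

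The stretch that encodes part of the C-terminal fingers is printed because it shows how alike the members are at the base level, on which the separation of their reads rests. Each line gives 60 coding bases of 1 GENCODE vM21 transcript, 5′ to 3′ on the coding strand, as the ungapped best match to the *Ikzf1* stretch, with capitals for bases that differ from *Ikzf1*:
Ikzf1: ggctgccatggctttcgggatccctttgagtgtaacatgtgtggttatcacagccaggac
Ikzf2: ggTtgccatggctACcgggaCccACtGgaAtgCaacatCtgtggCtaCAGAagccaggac
Ikzf3: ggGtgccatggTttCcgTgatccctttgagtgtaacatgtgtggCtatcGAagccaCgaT
Ikzf4: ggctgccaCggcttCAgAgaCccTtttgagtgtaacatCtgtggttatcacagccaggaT
Ikzf5: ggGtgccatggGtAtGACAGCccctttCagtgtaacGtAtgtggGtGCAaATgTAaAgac

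The *Ikzf4* stretch differed from *Ikzf1* at 8 bases, *Ikzf3* at 9, *Ikzf2* at 15 and *Ikzf5* at 21. On GRCm38 (mm10) they lie at chr11:11769465-11769524 on the plus strand in exon 9 of 9 of Ikzf1-203, and on the minus strand at chr1:69538819-69538878 in exon 8 of 8 of Ikzf2-207, chr11:98467043-98467102 in exon 8 of 8 of Ikzf3-201, chr10:128634099-128634158 in exon 8 of 9 of Ikzf4-203 and chr7:131391688-131391747 in exon 4 of 4 of Ikzf5-201. The longest identical run between coding sequences of any pair of members was 26 bases, between *Ikzf1* and *Ikzf3*, within this stretch. Over all annotated transcripts the longest was 32 bases, between *Ikzf2* and *Ikzf4*. A read that matches 1 member over more than 32 bases therefore matches no other member exactly. The read length is not given in the sources used here.

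The libraries held 14091054 to 30134742 reads on listed genes. The targeted gene *Bptf* had 5520 and 5850 normalized counts in the control libraries and 3398 and 3319.9 in the Bptf cKO libraries, a log2 difference of -0.76 (SE 0.090, limma adjusted p = 0.0439, edgeR adjusted p = 0.0531, DESeq2 adjusted p = 9.73e-08). With any 1 of the 4 libraries left out, its limma adjusted p was 0.0647 to 0.316. A normalized count is a gene's read count divided by a size factor of its library. *Kit* was present in every library at 13634 to 17051 normalized counts. The replicate 2 libraries of both genotypes stood apart from the replicate 1 libraries, here with control before Bptf cKO. *Xist* was at 15675 and 11843 normalized counts in replicate 2 against 0.775 and 3.25 in replicate 1. The Y-linked gene *Ddx3y* was present in every library, at 456 and 769 in replicate 2 against 1837 and 1835 in replicate 1. The summed 6 listed pluripotency genes were at 937 and 1195 against 4.65 and 8.45. In control replicate 1 the 6 neutrophil genes summed to 44577 normalized counts, against 4026 to 14064 in the other libraries. For the members, differences within the same replicate number are therefore given beside the pooled ones.

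All 5 members passed the filter of a mean of at least 10 normalized counts and were tested with 14858 genes, as log2 values after adding 1 to each normalized count. None of the 5 passed an adjusted p of 0.05 in limma, where 0.74% of all tested genes did, and 0 passed in the edgeR quasi-likelihood test, where 0.633% did. At an unadjusted p under 0.05, *Ikzf2* and *Ikzf4* passed in limma, beside 15.7% of all genes. In the DESeq2 Wald test 1 member, *Ikzf2*, passed, beside 5.85% of the genes given an adjusted p, and 3.57% in its direction, lower in Bptf cKO. The Bptf cKO libraries lay below both control libraries for 2 members and above them for 1, beside 23.8% and 23.2% of all tested genes. For any 1 gene taken alone, the exact permutation test (two-sided) has 0.333 as its smallest p with 2 libraries in each group.

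**Figure D1:**
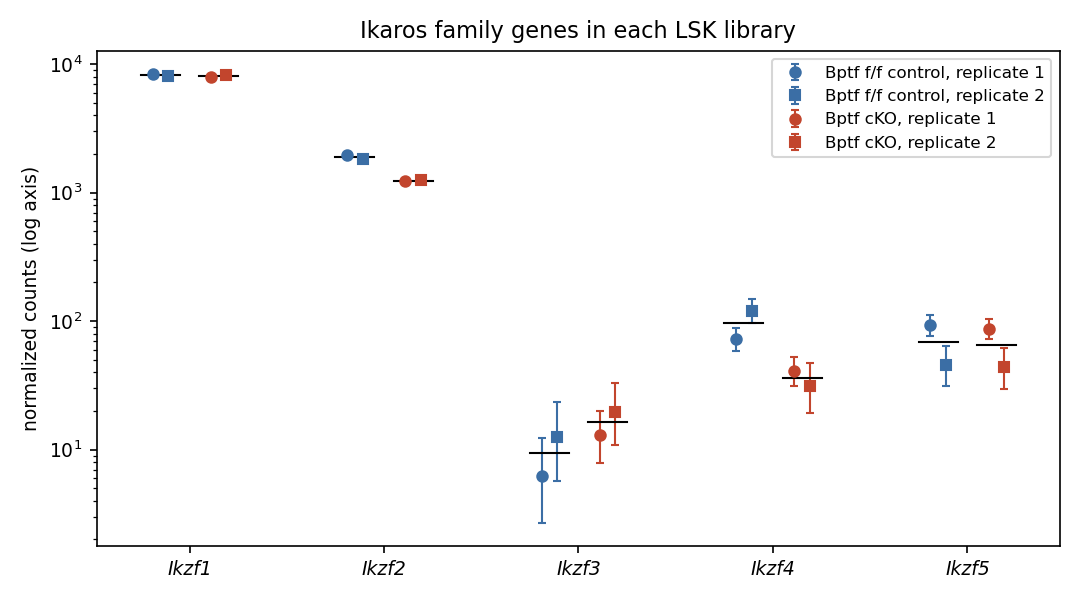
Normalized counts of the 5 Ikaros family genes (y axis, log scale) in each library, with circles for replicate 1 and squares for replicate 2, blue for control and red for Bptf cKO. Error bars are 95% Poisson intervals of the read counts, which cover counting error only, and black lines are group means of 2 libraries. *Ikzf2* and *Ikzf4* sit lower in Bptf cKO, *Ikzf1* overlaps, and *Ikzf5* splits by replicate number.

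*Ikzf1*, on chromosome 11 from 11685003 to 11772926, was by far the most abundant member. The control libraries had 8345 (replicate 1) and 8108 (replicate 2) normalized counts, and the Bptf cKO libraries 7947 and 8269.5. The groups overlap, and the libraries differ little from each other. The means were 8226 ± 168 and 8108 ± 228 (SD, n = 2 each). The log2 difference of Bptf cKO minus control was -0.021 (SE 0.088, 95% interval -0.24 to 0.20, limma adjusted p = 0.945), with -0.071 in replicate 1 and 0.028 in replicate 2. The interval corresponds to 0.845- to 1.15-fold. The small value changed sign, to 0.030, when the libraries were recentred on their medians. Its rank was high among all genes too, since 98.3% of the 18598 genes had a lower mean normalized count.

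*Ikzf2*, the Helios gene, on chromosome 1 from 69531214 to 69687245, was lower in both Bptf cKO libraries. It had 1962 and 1839 normalized counts in the control libraries and 1232 and 1254 in the Bptf cKO libraries. The groups did not overlap, and the gap between them was wider than the spread within either. The means were 1900.5 ± 86.7 and 1243 ± 16.1 (SD, n = 2 each), a log2 difference of -0.61 (SE 0.100, 95% interval -0.86 to -0.36), or 0.655-fold. The limma adjusted p was 0.0778 and the edgeR adjusted p 0.0843, while DESeq2 gave 8.62e-04. The difference was -0.67 in replicate 1 and -0.55 in replicate 2. At least 889 reads per library stood behind these values. By limma p, *Ikzf2* ranked 264 of 14858 genes, and 10.5% of the tested genes had a more negative log2 difference.

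Markers of stem cells and of erythroid cells were at lower levels in Bptf cKO beside *Ikzf2*. In bulk RNA, fewer cells of a type and less RNA per cell cannot be told apart. The 10 stem cell markers, a list with *Procr*, *Slamf1*, *Fgd5* and *Esam*, summed to 14205 and 21588 normalized counts in control and to 9624 and 12776 in Bptf cKO, with none of the 10 at 0 in any library. Their median log2 difference was -0.81 against 0.0010 over all tested genes, and 7 of 10 had Bptf cKO libraries below both control libraries. None passed in limma or edgeR, 6 had an unadjusted limma p under 0.05, and DESeq2 called 2, *Esam* (log2 difference -1.42) and *Mllt3* (-0.65). Within the control group the marker sum was higher in replicate 2. *Ikzf2* was at 1962 in control replicate 1 and 1839 in control replicate 2, alike within counting error. Replicate 1 was at 1.07-fold of replicate 2 (exact interval 0.998 to 1.14, counting error only). The 8 erythroid markers summed to 1749 and 1616 normalized counts in control and 686 and 801 in Bptf cKO, with 1 of them at 0 in Bptf cKO replicate 1. Of the 7 tested, 6 had Bptf cKO libraries below both control libraries, and the median log2 difference was -1.89. The erythropoietin receptor gene *Epor* passed in limma (log2 difference -1.96, adjusted p = 0.0443), none passed in edgeR, and DESeq2 called 3, among them *Epor* and the erythroid factor gene *Klf1*. The 3 multipotent progenitor markers *Cd48*, *Flt3* and *Cd34* overlapped between the groups, at sums of 29776 and 21840 in control and 22719 and 16852 in Bptf cKO and a median log2 difference of -0.69, and 0 passed in limma, edgeR or DESeq2. The part of these cells in the *Ikzf2* and *Ikzf4* differences was not tested.

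*Ikzf4*, the Eos gene, on chromosome 10 from 128630843 to 128645991, was a low-level gene with the most negative difference of the family. It had 72.9 and 121 normalized counts in the control libraries, from 94 and 87 reads, and 40.9 and 31.0 in the Bptf cKO libraries, from 63 and 22 reads. Both Bptf cKO libraries were below both control libraries, and the control libraries differed from each other by more than the Bptf cKO libraries did. The means were 96.7 ± 33.7 and 36.0 ± 7.0 (SD, n = 2 each), a log2 difference of -1.37 (SE 0.38, 95% interval -2.34 to -0.40), or 0.387-fold. The adjusted p was 0.200 in limma, 0.215 in edgeR and 0.114 in DESeq2, so the difference did not pass in any of these tests. It was -0.82 in replicate 1 and -1.92 in replicate 2. The control libraries were not alike beyond counting error, with replicate 1 at 0.604-fold of replicate 2 (exact 95% interval 0.447 to 0.818). Of all tested genes, 2.75% had a more negative difference.

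*Ikzf3*, the Aiolos gene, on chromosome 11 from 98464902 to 98546031, was near the limit of detection. It had 8 and 9 reads in the control libraries and 20 and 14 in the Bptf cKO libraries, or 6.20 and 12.5 against 13.0 and 19.8 normalized counts. The Bptf cKO libraries were above both control libraries, but the lower one only just. The log2 difference was 0.79 (SE 0.61, 95% interval -0.76 to 2.34, limma adjusted p = 0.607), with 0.96 in replicate 1 and 0.62 in replicate 2. DESeq2 gave no adjusted p at this depth. The 95% Poisson interval of the reads, which covers counting error only, ran from 2.68 to 12.2 normalized counts in control replicate 1 and from 10.8 to 33.1 in Bptf cKO replicate 2. The interval of the genotype difference includes 0 and is wide.

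Aiolos belongs to lymphoid cells, and markers of those cells were measured beside it. The 7 B cell markers summed to 6841 and 1816 normalized counts in control and 3833 and 2296 in Bptf cKO. Of 5 NK cell markers 3 were listed, at a sum of 1229 to 1946 in control and 2301 to 2303 in Bptf cKO, and *Prf1* was at 0 in control replicate 2. Of 8 T cell markers 3 were listed, at a sum of 531 and 666 in control and 401 and 650 in Bptf cKO. The part of these cells in the level of *Ikzf3* was not tested.

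*Ikzf5*, the Pegasus gene, on chromosome 7 from 131388652 to 131410521, differed by replicate number, and its genotype difference was near 0 with a wide interval. Replicate 1 had 93.0 normalized counts in control and 87.1 in Bptf cKO, and replicate 2 had 45.7 in control and 43.7 in Bptf cKO. The genotypes overlap entirely, and the replicate 1 libraries are high in both. Of the 14858 tested genes, 346 (2.33%, *Ikzf5* included) moved at least as far by replicate number, with the same sign in both genotypes. The means were 69.4 ± 33.4 and 65.4 ± 30.7 (SD, n = 2 each), a log2 difference of -0.078 (SE 0.51, 95% interval -1.38 to 1.22, limma adjusted p = 0.967), with -0.094 in replicate 1 and -0.063 in replicate 2. Replicate 1 was 2.03-fold of replicate 2 in control (exact 95% interval 1.37 to 3.09, counting error only) and 1.99-fold in Bptf cKO (1.34 to 3.05), from 120 and 33 reads and from 134 and 31 reads.

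The annotation limits what the *Ikzf5* value measures. Of its 5721 exon bases, 4652 are also exon bases of *Pstk* on the opposite strand, and only 886, or 15.5%, belong to no other gene. *Pstk* encodes the kinase that makes phosphoseryl-tRNA for selenocysteine. The strand setting of the counting is not given in the sources used here, and without strand the reads of the pair cannot be told apart in the shared bases. *Pstk* itself had 334 and 334 normalized counts in control and 192 and 182 in Bptf cKO, a log2 difference of -0.84 (limma adjusted p = 0.111, DESeq2 adjusted p = 0.0188). Exons of the other 4 members were free of other annotated genes over 98.8% to 100% of their length.

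**Figure D2:**
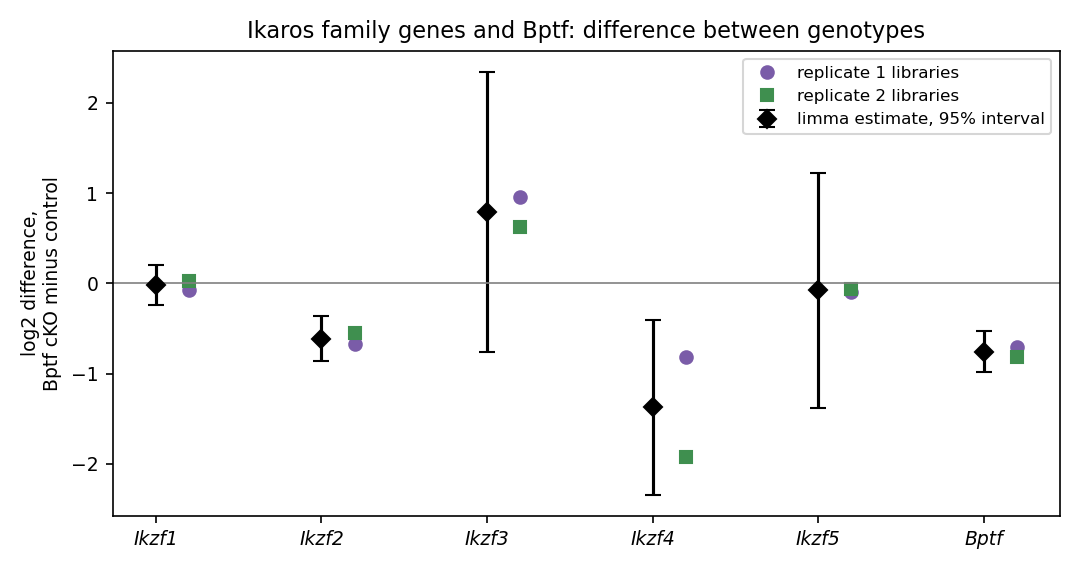
Log2 difference of Bptf cKO minus control (y axis) for the 5 Ikaros family genes and *Bptf*. Black diamonds with bars are the limma estimate and its 95% interval over 2 libraries a group, and coloured points are the differences within replicate 1 and within replicate 2. The intervals of *Ikzf2* (-0.86 to -0.36), *Ikzf4* (-2.34 to -0.40) and *Bptf* lie below 0, and those of the other 3 genes include 0.

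Levels can be compared between members only per length, here as normalized counts per kb of merged exons. In control, *Ikzf1* stood at 1424 ± 29.0 per kb, *Ikzf2* at 164 ± 7.47, *Ikzf4* at 16.1 ± 5.63, *Ikzf5* at 12.1 ± 5.84 and *Ikzf3* at 1.07 ± 0.507 (SD, n = 2 libraries each). In Bptf cKO the levels were 1404 ± 39.5 for *Ikzf1*, 107 ± 1.38 for *Ikzf2*, 11.4 ± 5.36 for *Ikzf5*, 6.00 ± 1.17 for *Ikzf4* and 1.87 ± 0.546 for *Ikzf3*. *Ikzf4* and *Ikzf5* overlapped in control, at 12.2 and 20.1 against 16.3 and 7.99 per kb, and came close without overlap in Bptf cKO, at 6.83 and 5.18 against 15.2 and 7.65. The other neighbours in this order did not overlap in either group. Over the 886 exon bases of no other gene, *Ikzf5* would stand at 49.4 to 105 normalized counts per kb, so its place between *Ikzf2* and *Ikzf3* holds while its level does not.

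As a share of the summed family level per kb, *Ikzf1* made up 87.9% and 88.2% in control and 91.4% and 92.1% in Bptf cKO. *Ikzf2* made up 10.3% and 9.95% in control and 7.05% and 6.95% in Bptf cKO. Over all merged exon bases, the shares of these 2 members shifted by more than the libraries of a group differed. *Ikzf3*, *Ikzf4* and *Ikzf5* each stayed under 1.27% in every library on this basis. All these shares use the *Ikzf5* level over its 5721 exon bases. Over the 886 bases of no other gene, *Ikzf5* would stand at 49.4 to 105 per kb, a share above 1.27%. With that level, the gap between the groups in the *Ikzf1* share would be narrower than the spread within either group. For *Ikzf2* the gap would stay wider than that spread.

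The ratio of a member to *Ikzf1* in the same library does not depend on the size factor of that library. For *Ikzf2* the log2 ratio to *Ikzf1* was -2.09 and -2.14 in control and -2.69 and -2.72 in Bptf cKO, a difference of -0.59 between the group means. For *Ikzf4* it was -6.82 and -6.06 against -7.57 and -8.01, a difference of -1.35. Both ratios were lower in each Bptf cKO library than in each control library. For *Ikzf3* the difference in ratio was 0.81 with Bptf cKO above, and for *Ikzf5* it was -0.057 with overlapping groups. The exact permutation p was 0.333 for *Ikzf2*, *Ikzf3* and *Ikzf4*, the smallest that 2 against 2 libraries allow, and 0.667 for *Ikzf5*.

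**Figure D3:**
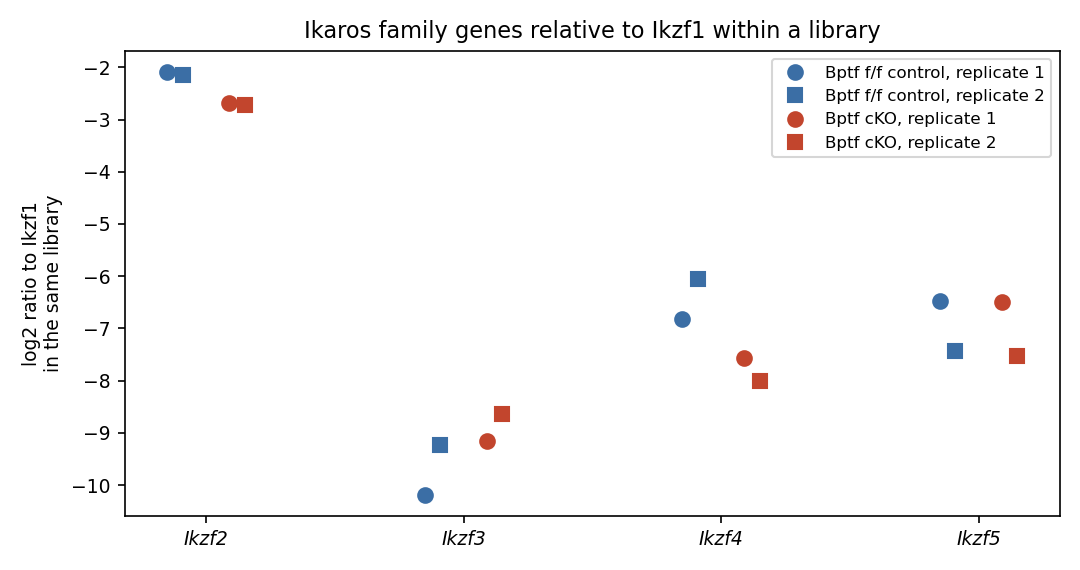
Log2 ratio of each member to *Ikzf1* in the same library (y axis, from log2 of the normalized count plus 1), with circles for replicate 1, squares for replicate 2, blue for control and red for Bptf cKO. *Ikzf2* moved from -2.09 and -2.14 to -2.69 and -2.72 with little spread, and *Ikzf5* separates by replicate number.

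Genes of the complexes that Ikaros proteins work with differed little. NuRD holds the remodelers CHD3 and CHD4 and the deacetylases HDAC1 and HDAC2, and 0 of its 13 subunit genes passed in limma, edgeR or DESeq2, with 0 at an unadjusted p under 0.05 in any of them. Their median log2 difference was -0.022, and *Chd4*, the most abundant of them, had 17481 and 18396 normalized counts in control and 17042 and 16900.2 in Bptf cKO. *Chd3* had the most negative log2 difference of the 13 (-0.22, limma adjusted p = 0.367). Of the 4 corepressor genes *Sin3a*, *Sin3b*, *Ctbp1* and *Ctbp2*, 0 passed in the 3 tests and 0 had an unadjusted p under 0.05, with a median of -0.039.

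The ligase that degrades Ikaros and Aiolos in human cells treated with thalidomide analogs is built from CUL4, DDB1, RBX1 and cereblon. Of its 5 genes 0 passed in limma, edgeR or DESeq2, at an unadjusted p under 0.05 too, and the median log2 difference was -0.098. *Crbn*, the cereblon gene, had 755 and 741 normalized counts in control and 675 and 724 in Bptf cKO. Among the 6 genes of CK2, a kinase of Ikaros, and of the phosphatase PP1, which reverses that phosphorylation, 0 passed in the 3 tests and 1 had an unadjusted limma p under 0.05. This was *Csnk2b*, the regulatory subunit of CK2, at 1945 and 2079 against 2463 and 2509 (log2 difference 0.31, limma adjusted p = 0.234).

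Genes known to need Ikaros for lymphoid priming were spread widely. Of the 10, 0 passed in limma and 0 in edgeR, 3 had an unadjusted p under 0.05 in limma, and DESeq2 called 1, *Gfi1*, which was higher. The median log2 difference was -0.67. *Dntt*, which encodes terminal transferase, had 7907 and 2692 normalized counts in control and 1658 and 584 in Bptf cKO, a log2 difference of -2.23 (SE 0.67, limma adjusted p = 0.221). Its groups did not overlap, control replicate 1 was far above control replicate 2, and the difference was -2.25 within replicate 1 and -2.20 within replicate 2. *Flt3*, the receptor of lymphoid-primed progenitors, had 9391 and 5832 against 5960 and 3214, with overlapping groups (-0.76, limma adjusted p = 0.395), and -0.66 within replicate 1 and -0.86 within replicate 2. *Il7r*, the interleukin-7 receptor gene, had 698 and 152 against 259 and 86.1, also with overlap, and -1.43 and -0.82 within replicates 1 and 2. *Gfi1*, a transcriptional repressor, had 1380 and 1333 against 2047 and 2256, a log2 difference of 0.66 (limma adjusted p = 0.0726, DESeq2 3.05e-04). Among the other genes of the list, the log2 difference was -3.42 for *Ccr9*, -1.03 for *Rag2*, -0.58 for *Rag1*, -0.49 for *Satb1* and -0.33 for *Notch1*. *Ccr9* had only 59 and 16 reads in control and 13 and 0 in Bptf cKO (SE 1.19, limma adjusted p = 0.270). *Rag1* changed sign between replicates, at -1.42 within replicate 1 and 0.26 within replicate 2.

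Of 9 genes known to be repressed by Ikaros or Aiolos in lymphocytes, 8 were listed and 7 tested. None passed in limma or edgeR, 2 had an unadjusted limma p under 0.05, and DESeq2 called 1, *Hes1*, a Notch target. *Hes1* had 309 and 467 normalized counts in control and 194 and 206 in Bptf cKO (log2 difference -0.92, SE 0.24, limma adjusted p = 0.182, DESeq2 0.0407). *Notch3* had 116 and 112 against 66.3 and 35.3 (-1.22, limma adjusted p = 0.232). The pre-B cell genes *Igll1* and *Vpreb1* overlapped between the groups, with control replicate 1 highest for each at 1799 and 829 normalized counts. *Cdk6* and *Myc* overlapped as well, with log2 differences of 0.39 and 0.27.

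**Figure D4:**
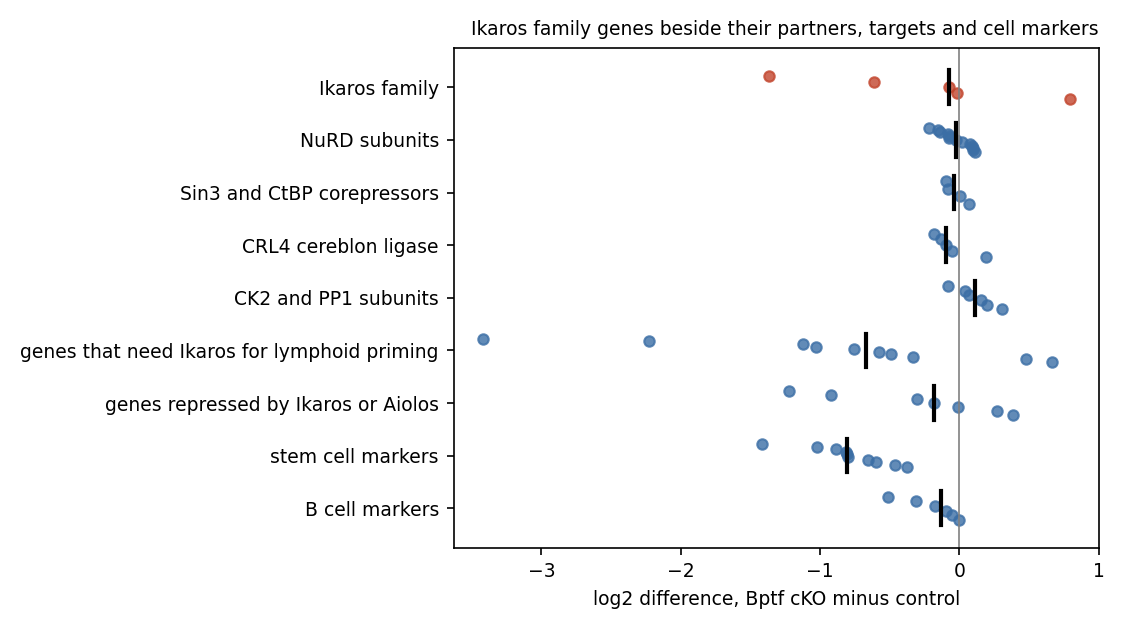
Log2 difference of Bptf cKO minus control (x axis) for each tested gene (points) of the Ikaros family, in red, and of lists of its partners, regulators, targets and cell markers, in blue, with the median of each list as a black bar. Partner genes lie close to 0, stem cell markers lie below it with a median of -0.81, and the lymphoid priming genes run from -3.42 to 0.66. The lowest of these, *Ccr9*, had 0 reads in Bptf cKO replicate 2.

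The genes whose pattern over the 4 libraries was most like a member's were found among 11859 genes with a mean of at least 50, by the root-mean-square (RMS) difference of log2 values centred on each gene's mean. For *Ikzf2* they were *Hdac11* (RMS difference 0.026), *Ccng2* (0.030) and *Dync2li1* (0.030). *Ccng2*, which encodes cyclin G2, had 1643 and 1472 normalized counts in control and 1038 and 1024 in Bptf cKO. For *Ikzf4* they were *Fgfr3* (0.054), *Cpxm1* (0.090) and *Ttc30b* (0.095). *Fgfr3*, a fibroblast growth factor receptor gene, had 113 and 194 against 68.9 and 53.6, so it too was higher in control replicate 2 than in control replicate 1. For *Ikzf1* they were *Mdm2*, *Kdm5a* and *Wipi2*, each with an RMS difference of at most 0.0067. For *Ikzf5* they were *Ncf4* (0.020), *Gm26917* (0.032) and *Mir703* (0.043), all with replicate 1 above replicate 2 in both genotypes. *Ikzf3* was below the mean needed. With 4 libraries many genes share a pattern, so this likeness is a description.

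The protein-coding genes next to the members were compared with them, as far as the table listed them. *Fignl1*, next to *Ikzf1*, had a log2 difference of -0.10 with overlapping groups. Beside *Ikzf2*, *Spag16* was listed at 4.65 and 0 normalized counts in control and 7.15 and 0 in Bptf cKO, too few reads to compare. Next to *Ikzf4*, *Rps26*, a ribosomal protein gene, had 6164 and 6080.2 normalized counts against 6412 and 6922, and *Suox*, the sulfite oxidase gene, 342 and 222 against 259 and 203, so neither neighbour had the *Ikzf4* pattern. *Grb7* and *Zpbp2*, on either side of *Ikzf3*, had log2 differences of 1.20 and 0.68, from at most 64.3 normalized counts and with overlapping groups. *Acadsb*, which begins 80 bases from the start of *Ikzf5*, had 677 and 493 against 602 and 494 and, like *Ikzf5*, was lower in replicate 2 of both genotypes, by less. None of the 7 neighbours tested passed in limma or edgeR, and none of the 6 given an adjusted p by DESeq2 passed there.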

How the data were processed

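The authors deposited 1 table for 4 libraries of sorted LSK cells. Its expression signal is a read count per gene, which the authors had scaled by dividing each library by its own size factor. The submitters' processing notes name HISAT2, featureCounts, DESeq2 and GRCm38 (mm10), and the versions, annotation and strand setting are not given in the sources used here. The table also holds the authors' mean and their own comparison: a log2 fold change with its standard error, a test score, and p-values. None of these deposited log2, score and p-value columns was used. Dividing a library by its smallest nonzero value gave whole reads for 100% of values (tolerance 1e-06). The listed genes have 11 or more reads in total.

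The sample titles gave the group and replicate number of each library. Log2 of the normalized count plus 1 was compared over 14858 genes with a mean of at least 10, using limma 3.58.1 (trend, genotype only, two-sided, Benjamini-Hochberg, R 4.3.3). The edgeR 4.0.16 quasi-likelihood test and the DESeq2 1.42.0 Wald test ran on the recovered reads. Limma with and without the replicate block, edgeR without it and DESeq2 were tested on simulated data, and the other fits were not. P-values measure only the spread between these libraries.

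Members and gene lists were chosen with earlier results of these data known. Beside the members and *Bptf*, the genes named are those of the partner, regulator and target lists past a test, the replicate block included, with at most 4 others a list, cell markers as examples, the nearest protein-coding neighbours, and the 3 genes most like each member with a mean of at least 50. *Pstk* was added after its overlap with *Ikzf5* was seen. Some genes of the lists are not reported here by name. Exon lengths, positions and sequences come from GENCODE vM21 (GRCm38), and 98.2% of listed genes had a length. Alternatives were other pseudocounts, filters, scalings and tests, the replicate block, and each library left out. Summaries used Python 3.11.15, numpy 2.4.6, pandas 2.3.3, scipy 1.17.1 and matplotlib 3.10.9.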

Additional observations from a re-analysis of the deposited data

How the results depend on the processing

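With 2 libraries a genotype, the precision of the abundant members is limited by the number of libraries, and that of *Ikzf3*, *Ikzf4* and *Ikzf5* also by their reads. The log2 differences of *Ikzf2* (-0.66 to -0.56), *Ikzf4* (-1.73 to -1.01) and *Ikzf3* (0.34 to 1.24) kept their direction under every alternative that could be fitted; *Ikzf3* has no value at a mean of at least 50. The value of *Ikzf4* was -1.73 without control replicate 1. *Ikzf1*, at -0.021, was 0.030 with the libraries recentred on their medians and between -0.050 and 0.0077 with a library left out. *Ikzf5* was 0.053 with quantile normalization and between -0.58 and 0.43 with a library left out. Neither passed under any alternative.

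The replicate numbers tie the libraries in the labels only by number, and the deviations of same-numbered libraries from their group means correlated at 0.452 over 14858 genes. With the replicate block, *Ikzf2* (log2 -0.61, adjusted p = 0.00142) and *Ikzf4* (-1.37, 0.0250) passed in limma, as in edgeR (-0.61, 8.11e-04 and -1.33, 0.0298), so 2 members passed in each, beside 14.4% and 14.3% of all genes. Also with the block, 8 of the 10 lymphoid priming genes (7 lower, 1 higher) passed in limma and in edgeR. So did, at lower values, 9 of the 10 stem cell markers, 5 of the 7 erythroid markers and 2 of the 3 multipotent progenitor markers. The same fits called 2 of the 7 tested genes repressed by Ikaros or Aiolos and 1 of the 6 tested B cell markers, lower. Higher were the 2 tested NK cell markers and 1 of the 6 CK2 and PP1 genes. In DESeq2 *Ikzf2* alone (-0.61) passed, 1 member. Genes lower in Bptf cKO numbered 55, and 1242 with the block in limma, 1229 with the block in edgeR, 500 in DESeq2, 0 in limma without trend and 0 to 41 with a library left out, the lowest without either Bptf cKO library and 17 without control replicate 2. Genes higher numbered 55, and 896, 891, 319, 2 and 1 to 76 in the same order, with 1 without either Bptf cKO library. With a library left out, the log2 ratio to *Ikzf1* differed by -0.62 to -0.56 for *Ikzf2*, -1.73 to -0.97 for *Ikzf4*, 0.34 to 1.28 for *Ikzf3* and -0.57 to 0.46, with a change of sign, for *Ikzf5*. A group left with 1 library was assumed to vary like the other.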
